A study of Mus musculus with 14 samples.

Results

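The 10 genes described here are imprinted genes that are expressed in brain: Peg3, Plagl1, Snrpn, Ndn, Igf2r, Grb10, Nnat, Peg10, Impact and Meg3. H3K4me3, a histone mark of active and poised promoters, was measured at them in mouse prefrontal cortex by ChIP-seq, the sequencing of DNA that an antibody pulls down with chromatin. Their members in the data were all peak summits lying inside a gene or within 2 kb of it on mm10, with gene boundaries from the RefSeq table (GRCm38.p6). This gave 103 of 153207 summits, in 49 of 48695 called regions. Summits of a gene separated by more than 5 kb were treated as separate sites, so that alternative promoters stayed apart. There were 16 sites, and 6 of the 10 genes had 1 site.

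The prefrontal cortex came from C57BL/6J males, adult and 10 to 12 weeks old. In the CSDS30 group, mice met an unfamiliar aggressive CD1 mouse each day for 30 days, and in the CSDS10 group for 10 days. Between encounters they lived beside a CD1 mouse behind a perforated barrier. Control mice were kept in divided cages with no aggressor, which the labels also call standard housing. Both defeated groups went through behavioural tests in the last days of defeat, and the cortex was dissected 24 hours after the final encounter. No mouse carried an engineered allele. The data comprised 5 CSDS30, 5 CSDS10 and 3 control libraries. The labels do not say that each library comes from an animal of its own. The p-values therefore reflect how far these libraries vary, which may be technical. All libraries carry the same batch date.

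An imprinted gene is transcribed mainly from the allele inherited from the mother or from the father. DNA methylation laid down in a germ line usually differs between the alleles, and an active imprinted promoter often carries H3K4me3 on one allele while the other is methylated. The protein ZFP57 binds a methylated hexamer, TGCCGC, and helps to keep this methylation in the early embryo. Many imprinted genes act in fetal growth, metabolism and the brain. C57BL/6J is an inbred strain, so the reads of the parental alleles were summed here and the allele that carries the mark was not measured. In bulk tissue, fewer cells that carry the mark and less mark per cell cannot be told apart.

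Values are normalised read counts, that is, the reads at a summit divided by a size factor per library. Between 4512817 and 10887911 reads fell on the summits per library. The least deep libraries were CSDS10 replicate 4, CSDS30 replicate 2 and CSDS10 replicate 2, the 3 shallowest. At the strongest summit of each of the 16 sites, a library held between 0 and 206 reads, with a median of 37.5. Counting error at these sites is therefore large, and intervals here rest on the spread between libraries. CSDS10 replicate 2 had the highest mean value per summit, 52.3, against 48.4 to 50.1 in the other libraries, and 3.66% of its reads fell on the strongest 1% of summits, against 3.04% to 3.35%. A summit was present at 8 of 8 markers of cortical excitatory neurons and at 0 of 6 markers of tissues other than brain. The summed level of the 8 neuron markers was 317 to 541 in CSDS30, 382 to 652 in CSDS10 and 384 to 452 in control libraries. A summit was present at 6 of 6 astrocyte, 6 of 6 endothelial, 3 of 6 oligodendrocyte and 3 of 6 microglia markers, so the tissue held these cells too.

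The start sites of these genes differ in sequence, and 6 promoter windows are shown because they hold a summit of the mark or the hexamer bound by ZFP57. Each window runs from 250 bases before to 50 bases after a start site, 5′ to 3′ on the gene's strand (RefSeq, GRCm38.p6). Capitals mark the hexamer, which appears as GCGGCA, the reverse complement of TGCCGC. The windows are those of Nnat (chr2:157559828-157560127, plus strand), Plagl1 (chr10:13090582-13090881, plus strand), Grb10 (chr11:12037371-12037670, minus strand), Igf2r (chr17:12769657-12769956, minus strand), Snrpn (chr7:60005150-60005449, minus strand) and Meg3 (chr12:109540746-109541045, plus strand).
Nnat: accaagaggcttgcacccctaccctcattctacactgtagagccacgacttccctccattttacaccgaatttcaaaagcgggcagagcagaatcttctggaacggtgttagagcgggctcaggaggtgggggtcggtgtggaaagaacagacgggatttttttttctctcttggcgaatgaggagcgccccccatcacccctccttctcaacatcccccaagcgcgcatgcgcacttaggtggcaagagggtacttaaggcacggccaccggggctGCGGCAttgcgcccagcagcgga
Plagl1: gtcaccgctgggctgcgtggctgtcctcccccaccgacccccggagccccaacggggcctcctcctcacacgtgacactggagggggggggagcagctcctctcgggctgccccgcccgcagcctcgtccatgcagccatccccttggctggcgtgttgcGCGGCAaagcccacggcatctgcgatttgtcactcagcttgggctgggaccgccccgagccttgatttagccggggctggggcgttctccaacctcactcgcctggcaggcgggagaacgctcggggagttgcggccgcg
Grb10: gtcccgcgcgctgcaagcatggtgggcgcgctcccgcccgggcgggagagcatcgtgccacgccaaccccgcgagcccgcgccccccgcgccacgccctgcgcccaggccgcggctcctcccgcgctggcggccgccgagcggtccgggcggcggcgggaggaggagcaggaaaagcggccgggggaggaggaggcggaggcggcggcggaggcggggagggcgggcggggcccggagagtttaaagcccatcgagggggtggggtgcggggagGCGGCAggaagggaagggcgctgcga
Igf2r: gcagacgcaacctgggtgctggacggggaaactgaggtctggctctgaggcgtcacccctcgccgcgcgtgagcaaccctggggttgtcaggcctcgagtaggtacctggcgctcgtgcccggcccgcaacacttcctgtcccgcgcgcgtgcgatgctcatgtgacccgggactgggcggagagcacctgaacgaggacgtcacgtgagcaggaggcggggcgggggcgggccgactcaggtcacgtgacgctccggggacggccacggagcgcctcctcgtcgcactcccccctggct
Snrpn: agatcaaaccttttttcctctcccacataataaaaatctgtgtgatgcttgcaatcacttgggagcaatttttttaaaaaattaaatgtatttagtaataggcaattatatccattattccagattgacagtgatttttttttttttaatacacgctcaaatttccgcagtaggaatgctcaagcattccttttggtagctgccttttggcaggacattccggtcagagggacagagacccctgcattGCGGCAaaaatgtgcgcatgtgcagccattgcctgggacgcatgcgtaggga
Meg3: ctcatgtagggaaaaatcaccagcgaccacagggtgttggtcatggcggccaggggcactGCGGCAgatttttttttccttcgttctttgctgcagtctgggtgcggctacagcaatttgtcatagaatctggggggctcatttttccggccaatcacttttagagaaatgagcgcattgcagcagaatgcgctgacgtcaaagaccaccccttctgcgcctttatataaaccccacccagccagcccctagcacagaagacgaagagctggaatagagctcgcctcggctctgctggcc

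A start site was listed for 8 of the 10 genes, with 13 windows in all; Peg10 and Impact had none. TGCCGC, searched on both strands, was in 5 of the 13 windows, those of Nnat, Plagl1, Grb10, Snrpn and Meg3 printed above, once in each. It was in 11.61% of the 32851 promoter windows of the table. The YY1 core GCCATNTT, also searched on both strands, was in 0 of 13 windows and in 6.052% of all windows. CG dinucleotides, 1 of which lies inside every TGCCGC, numbered 45 in the Grb10 window, 34 in Igf2r, 26 in Plagl1, 17 in Nnat, 13 in Meg3 and 7 in Snrpn. The median over all windows was 7 and the 90th percentile 31. Only the Nnat, Plagl1, Grb10 and Igf2r windows held a summit, 2 in each. A match is a string of letters and was not tested for binding or methylation.

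At the strongest summit in control, Impact carried the most H3K4me3 of the 10 genes, and Grb10 and Meg3 the least. In control cortex the strongest summit of each gene ranked as follows. Impact averaged 116 ± 26.3, Igf2r 84.6 ± 23.8, Peg3 63.9 ± 14.2, Plagl1 61.5 ± 11.8 and Peg10 60.4 ± 12.98 (SD, n = 3 each). Snrpn averaged 57.4 ± 3.58, Ndn 36.5 ± 9.22, Nnat 35.2 ± 6.45, Meg3 26.3 ± 9.05 and Grb10 24.0 ± 7.10. Neighbours in this order differed by more than the larger of their SDs only between Impact and Igf2r and between Snrpn and Ndn, and the other neighbours were not separated by more than their spread. These are levels at a fixed summit, and the width over which reads were counted is not given in the sources used here.

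Most of the 10 genes had less of the mark than a typical gene. The strongest summit of 15248 protein-coding genes had a median of 98.9 in control, with quartiles of 68.5 and 118. Of the 10 imprinted genes, 9 lay below that median and 8 below the lower quartile. Impact, at percentile 72.3 of the coding genes, was the exception, and Igf2r stood at percentile 35.7. Of the 16 sites, 15 lay below the median and 14 below the lower quartile. No test was made of this difference.

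**Figure D1:**
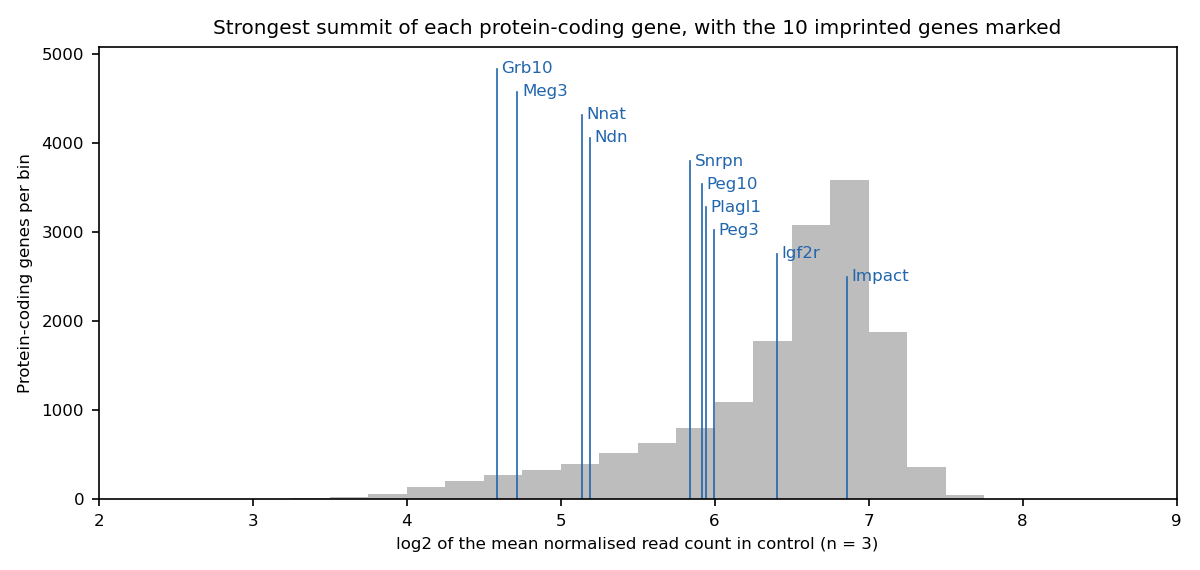
Histogram of protein-coding genes by the log2 mean normalised read count of their strongest summit in control libraries (n = 3), with a vertical line at each of the 10 imprinted genes. Line heights carry no value and only separate the labels. The bulk of coding genes has a median of 98.9 on the linear scale, and 9 of the 10 lines lie to its left.

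The comparisons asked whether 30 or 10 days of defeat changed the mark at these genes, and whether 30 days differed from 10. No summit of the 10 genes passed the test in any comparison. With limma on log2(value + 1), fitted over 152270 summits with Benjamini-Hochberg adjustment at 0.05, 0 of the 103 summits were called in CSDS30 against control, 0 in CSDS10 against control and 0 in CSDS30 against CSDS10. The background was the same, with 0% of all tested summits called in each of the 3 comparisons. The smallest adjusted p over the 49 regions was 1.00 in CSDS30 against control, 1.00 in CSDS10 against control and 0.963 in CSDS30 against CSDS10. edgeR's quasi-likelihood test and DESeq2 on the recovered reads also called 0 of the 103 summits in each comparison. Under an unadjusted p of 0.05 in either direction, edgeR had 3 of the 103 in CSDS30 against control, 4 in CSDS10 against control and 1 in CSDS30 against CSDS10, where the shares of all tested summits were 3.24%, 3.02% and 4.49%. DESeq2 had 4, 5 and 1 in the same comparisons, where the shares were 3.78%, 3.55% and 5.12%. CSDS30 and CSDS10 were set against the same 3 control libraries, so their fold changes share the error of those libraries.

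Counts at an unadjusted p under 0.05 were small as well. In CSDS30 against control, 2 of the 103 summits were higher, where the share of all tested summits was 1.44%, and 0 were lower, against 1.97% of all summits. In CSDS10 against control, 1 summit was higher, against 1.99% of all summits, and 0 were lower, against 1.22%. In CSDS30 against CSDS10, 0 were higher, against 2.01%, and 1 was lower, against 3.11%. These counts are near or below the background.

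Few summits had groups that did not overlap, though the higher shares against control exceeded those of all summits, a difference that was not tested. In CSDS30 against control, 3 of the 103 summits (2.91%) had every CSDS30 library above every control library, against 1.23% of all summits, and 0 had the reverse, against 1.74%. In CSDS10 against control, 3 (2.91%) had every CSDS10 library above every control library, against 1.59%, and 0 the reverse, against 1.4%. In CSDS30 against CSDS10, 0 were higher without overlap, against 0.334%, and 0 lower, against 0.387%. The summits counted here are not independent, since 1 summit of Impact is in both lists of 3 and neighbouring summits share fragments.

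Over the 49 regions, each taken at its strongest summit, changes went both ways. In CSDS30 against control, 26 regions were higher and 23 lower, with a median log2 fold change of 0.01 and a range from -0.37 to 0.65. The median over all 48167 regions tested was 0.02, and 52.8% of them were higher. In CSDS10 against control, 29 were higher and 20 lower, with a median of 0.08 and a range from -0.85 to 0.60, beside 0.00 and 50.6% higher over all regions. Without control replicate 1 that median was -0.03. In CSDS30 against CSDS10, 23 were higher and 26 lower, with a median of -0.04 and a range from -0.43 to 0.58, beside 0.01 and 52.0% higher. The median width of the 95% interval to either side was 0.66 in the comparisons with control and 0.57 in CSDS30 against CSDS10. The interval lay within a log2 change of 1 in either direction for 35 of 49 regions in CSDS30 against control, 32 in CSDS10 against control and 44 in CSDS30 against CSDS10. Larger changes lay outside the intervals of those regions, and smaller ones may lie inside them. The within-group SD of the log2 values had a median of 0.42 over these regions, against 0.36 over all regions, and their median level was lower, 27.2 against 34.1.

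**Figure D2:**
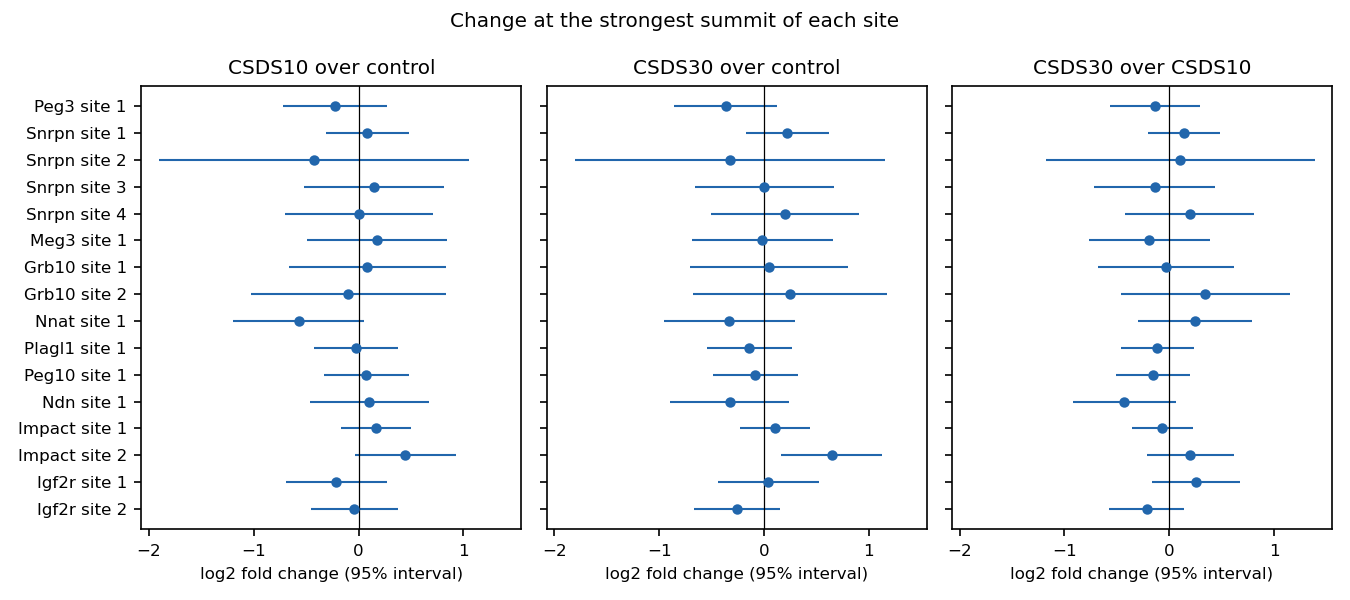
Log2 fold change at the strongest summit of each of the 16 sites in the 3 comparisons; points are limma estimates and bars 95% intervals. The interval excludes 0 only at Impact site 2 in CSDS30 over control, where the estimate was 0.65, and that value did not pass the adjusted test.

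Among the transcription factors, Peg3 encodes a zinc finger protein that is expressed from the paternal allele and acts in growth and in maternal behaviour in mice. Its 13 summits in 6 regions covered 3378 bp around the start of the gene (gene body at chromosome 7, 6703892 to 6730462), and the strongest lay at 6730289, 130 bp downstream of the listed start. There the CSDS30 libraries had 53.2, 31.2, 61.0, 54.8 and 48.5, the CSDS10 libraries 63.2, 73.4, 51.8, 32.2 and 56.9, and the control libraries 56.6, 54.7 and 80.2. The groups overlapped. The lowest value of each defeated group came from one of the 3 shallowest libraries, and so did the highest CSDS10 value, 73.4. The log2 fold change was -0.37 ± 0.24 (SE) in CSDS30 against control and -0.23 ± 0.24 in CSDS10 against control (limma, adjusted p = 1.00 for both). At a neighbouring summit, 6729363, the values ran the other way. It had 49.5 ± 8.19 in CSDS30, 57.7 ± 13.2 in CSDS10 and 41.1 ± 4.02 in control (SD, n = 5, 5 and 3). In CSDS10 against control the log2 fold change was 0.45 with an unadjusted p of 0.0491, the only one under 0.05 among the 103 summits in that comparison (limma, adjusted p = 1.00). Of Peg3's summits, 11 also lie within 2 kb of Usp29, which starts back to back with Peg3, and the mark cannot be divided between them.

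Plagl1 encodes a zinc finger factor that restrains cell proliferation and is expressed from the paternal allele, with the noncoding RNA Hymai starting beside it. All 7 of its summits lie within 2 kb of Hymai. At the strongest, chromosome 10 position 13091134, 302 bp downstream of the start, the CSDS30 libraries had 51.7, 45.3, 52.6, 65.9 and 62.3, the CSDS10 libraries 68.9, 59.3, 62.1, 61.0 and 48.8, and the control libraries 60.1, 73.8 and 50.4. The 3 ranges overlapped throughout. At 2 weaker summits of the same region, named after their values were seen, every CSDS10 library lay above every control library. At 13091341 the CSDS30 libraries had 32.1, 29.7, 28.4, 17.1 and 20.3, the CSDS10 libraries 30.4, 31.1, 38.6, 54.2 and 37.4, and the control libraries 23.1, 26.9 and 25.2. There the log2 fold change was 0.56 in CSDS10 against control and -0.57 in CSDS30 against CSDS10, with an unadjusted p of 0.0550 and 0.0256 (limma, adjusted p = 1.00 and 0.963). At 13090945 the mean was 48.2 ± 18.3 in CSDS30, 56.1 ± 3.79 in CSDS10 and 45.1 ± 6.34 in control.

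Snrpn, expressed from the paternal allele, encodes a protein of the spliceosome, and its promoter region is the imprinting centre of the Prader-Willi domain. The annotated gene spans 467683 bp of chromosome 7 (59982495 to 60450177) and its 16 summits fell into 4 sites. The strongest site, at 60004248, lay 951 bp downstream of the start shared with Snurf. Here the CSDS30 libraries had 62.6, 57.8, 71.5, 55.6 and 93.5, the CSDS10 libraries 61.5, 52.2, 57.4, 61.0 and 73.2, and the control libraries 61.5, 55.6 and 55.0. The highest value of each defeated group came from replicate 5, and the groups overlapped. The log2 fold change was 0.22 (95% interval -0.17 to 0.62) in CSDS30 against control and 0.08 (-0.31 to 0.48) in CSDS10 against control.

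The other Snrpn sites lay upstream, in the direction of its distant alternative starts, and were weaker. The site at 60244270 averaged 26.2 ± 9.66 in CSDS30, 29.5 ± 12.1 in CSDS10 and 24.9 ± 1.75 in control. The site at 60391272 averaged 24.6 ± 7.96 in CSDS30, 21.4 ± 8.09 in CSDS10 and 21.2 ± 7.78 in control. The lone summit at 60155635, inside the pseudogene Gm7367, held 0 to 11 reads per library and averaged 4.83 ± 3.93 in CSDS30, 5.12 ± 4.80 in CSDS10 and 5.36 ± 3.02 in control (SD, n = 5, 5 and 3). Among the strongest summits of coding genes this level would stand at percentile 0.302. All 16 Snrpn summits also lie in or within 2 kb of Snhg14, the long host transcript of the domain's small nucleolar RNAs.

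Ndn encodes necdin, a MAGE family protein of neurons that is expressed from the paternal allele in the same domain. It had 2 summits in 1 region, both also inside the annotated span of the noncoding RNA Gm32061. The stronger lay at chromosome 7 position 62348430, 153 bp downstream of the Ndn start. The CSDS30 libraries had 33.7, 17.2, 23.1, 33.4 and 40.6, the CSDS10 libraries 46.8, 36.7, 39.5, 30.5 and 40.7, and the control libraries 29.3, 46.9 and 33.2. The CSDS30 mean was lowest, 29.6 ± 9.32 against 38.8 ± 5.93 in CSDS10 and 36.5 ± 9.22 in control, with overlap of all groups. The CSDS30 median, 33.4, was close to that of control, 33.2, and below that of CSDS10, 39.5. The lowest CSDS30 value, 17.2, came from replicate 2, one of the 3 shallowest libraries. The log2 fold change was -0.43 ± 0.24 (SE) in CSDS30 against CSDS10 (limma, unadjusted p = 0.0853, adjusted p = 0.963) and -0.33 ± 0.28 in CSDS30 against control.

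Igf2r encodes the receptor that takes up IGF2 for degradation and sorts lysosomal enzymes. Its maternal allele is the active one in most mouse tissues, and the antisense noncoding RNA Airn starts inside the gene on the paternal allele. Both promoters carried the mark, in 1 region of 8 summits each. Site 2, at the Igf2r start on chromosome 17, had its strongest summit at 12769537, 169 bp downstream of the start at 12769706. Its CSDS30 libraries had 74.4, 46.9, 85.2, 59.9 and 85.5, its CSDS10 libraries 92.7, 86.1, 79.1, 72.8 and 70.7, and its control libraries 95.7, 101 and 57.3. The control group alone spanned most of the range of the other groups. Site 1 spans 12741510 to 12742760, just inside the annotated boundary of Airn at 12741311. At its strongest summit, 12742356, the CSDS30 libraries had 52.5, 42.2, 58.9, 49.6 and 65.9, the CSDS10 libraries 41.8, 28.2, 66.8, 44.0 and 49.6, and the control libraries 60.1, 41.7 and 55.0. No comparison at either site had an interval that excluded 0. All 16 summits lie within the annotated span of Airn, or within 2 kb of it, and single reads were not assigned to a strand.

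Grb10 encodes an adaptor protein that restrains signalling from the insulin and IGF receptors. It is expressed from the maternal allele in most mouse tissues and from the paternal allele, through other promoters, in neurons. Site 2 lay at the listed start on chromosome 11 and site 1 inside the gene, near another listed start. At 12037867, the strongest summit of site 2 and at -447 bp from the start, the CSDS30 libraries had 7.05, 51.5, 13.7, 24.8 and 10.9, the CSDS10 libraries 16.4, 15.5, 13.2, 6.78 and 17.1, and the control libraries 16.8, 14.8 and 11.5. A single library, CSDS30 replicate 2, set the spread of its group, 21.6 ± 18.01. The log2 fold change was 0.25 in CSDS30 against control and 0.35 in CSDS30 against CSDS10, and without this library it was -0.14 and -0.04 (none passed). At 12037403, 17 bp downstream of the start, the means were 14.9 ± 4.93 in CSDS30, 11.1 ± 6.98 in CSDS10 and 17.3 ± 0.83 in control. Its log2 fold change was -0.85 in CSDS10 against control, the lowest of the 49 regions. In CSDS30 against CSDS10 it was 0.58, the highest, and neither passed. CSDS10 replicates 2 and 4, among the 3 shallowest libraries, had 2.82 and 5.08 there. At 12026094, the strongest summit of site 1 and 1877 bp downstream of its start, the CSDS30 libraries had 29.0, 10.9, 35.8, 20.5 and 34.1, the CSDS10 libraries 20.5, 48.0, 21.6, 15.2 and 27.6, and the control libraries 16.1, 26.1 and 29.8. CSDS30 replicate 2, highest of its group at 12037867, was the lowest of its group at 12026094. Its library held few reads in all, and the part of depth in these values was not tested.

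Nnat encodes neuronatin, a small membrane protein of the endoplasmic reticulum in neurons, expressed from the paternal allele and lying inside Blcap. All 7 of its summits also lie within Blcap or 2 kb of it. At the strongest, chromosome 2 position 157560152, 74 bp downstream of the start, the CSDS30 libraries had 23.5, 31.2, 22.1, 35.9 and 26.8, the CSDS10 libraries 33.6, 33.9, 13.2, 20.3 and 21.1, and the control libraries 30.0, 33.0 and 42.4. Defeated libraries lay lower on average with overlap, since 2 CSDS30 and 2 CSDS10 libraries exceeded the lowest control. The log2 fold change was -0.57 (95% interval -1.20 to 0.06) in CSDS10 against control and -0.33 (-0.96 to 0.30) in CSDS30 against control (limma, unadjusted p = 0.0725 and 0.292, adjusted p = 1.00 for both).

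Peg10 is a gene derived from a retrotransposon, with gag and pol reading frames, needed for the placenta and also expressed in brain from the paternal allele. Its 15 summits all lie within 2 kb of Sgce, which starts back to back with it. The strongest lay at chromosome 6 position 4746842, inside the annotated span of Sgce, whose boundary at 4747204 faces that of Peg10 at 4747306. The CSDS30 libraries had 66.6, 43.7, 57.8, 63.3 and 51.4, the CSDS10 libraries 53.3, 60.7, 65.9, 66.1 and 67.5, and the control libraries 45.4, 66.9 and 68.8. The means, 56.6 ± 9.19 in CSDS30, 62.7 ± 5.84 in CSDS10 and 60.4 ± 12.98 in control, differed by less than the SD of CSDS30 or of control. At a weaker summit, 4746291, the means were 31.3 ± 7.76 in CSDS30, 33.8 ± 10.4 in CSDS10 and 21.6 ± 5.48 in control, with overlap. Its log2 fold change of 0.60 in CSDS10 against control was the highest of the 49 regions in that comparison and did not pass.

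Impact encodes a regulator of translation that restrains the kinase GCN2 and is abundant in neurons, and its paternal allele is the active one in mice. Site 1, near the boundary of the gene on chromosome 18 at 12954690, was the strongest site of all. At 12955636 the CSDS30 libraries had 115, 150, 122, 123 and 106, the CSDS10 libraries 114, 110, 121, 185 and 123, and the control libraries 144, 112 and 91.7. The groups overlapped, with log2 fold changes between -0.07 and 0.17 in the 3 comparisons. At the last summit of this site, 12956279, named after its values were seen, the CSDS30 libraries had 72.8, 74.98, 79.9, 66.7 and 62.3, the CSDS10 libraries 73.8, 106, 62.1, 62.7 and 52.0, and the control libraries 55.9, 44.3 and 57.3. CSDS30 did not overlap control there, with a log2 fold change of 0.44 (limma, unadjusted p = 0.0359, adjusted p = 1.00).

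Impact site 2, inside the gene, came closest to a change among all 49 regions, though it did not pass. Its 7 summits spanned 2161 bp. At the strongest, 12973057, the CSDS30 libraries had 35.2, 40.6, 52.6, 53.9 and 44.2, the CSDS10 libraries 38.6, 43.8, 40.5, 32.2 and 39.8, and the control libraries 25.2, 27.8 and 32.1. All 10 libraries of defeated mice lay above all 3 controls, by a narrow margin for CSDS10 replicate 4 (32.2 against 32.1 in control replicate 3). The log2 fold change was 0.65 (SE 0.24, 95% interval 0.17 to 1.13) in CSDS30 against control, with an unadjusted p of 0.00979, and 0.45 (95% interval -0.03 to 0.93) in CSDS10 against control, with an unadjusted p of 0.0680 (limma, adjusted p = 1.00 for both). The other 6 summits of the site differed in direction and overlapped between groups in every comparison. At 12972875 the means were 36.1 ± 4.37 in CSDS30, 32.4 ± 10.4 in CSDS10 and 25.9 ± 8.55 in control, and at 12973654 they were 34.2 ± 8.46 in CSDS30, 43.1 ± 7.26 in CSDS10 and 30.1 ± 7.45 in control, so that control was lowest at both. At the last 2 summits control was highest. At 12974425 the means were 25.6 ± 6.89 in CSDS30, 26.4 ± 14.1 in CSDS10 and 33.7 ± 4.46 in control, and at 12974525 they were 30.3 ± 7.15 in CSDS30, 31.9 ± 8.51 in CSDS10 and 36.9 ± 1.18 in control.

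Meg3, the one long noncoding RNA among the 10 genes, is expressed from the maternal allele of the Dlk1-Dio3 domain. Its 8 summits in 7 regions spread over 3076 bp at low levels. Of these, 5 also lie within 2 kb of the noncoding RNA Gm34081, and 2 within 2 kb of the microRNA Mir1906-1. At the strongest, chromosome 12 position 109541265, 269 bp downstream of the start, the CSDS30 libraries had 26.6, 21.9, 23.1, 18.8 and 38.4, the CSDS10 libraries 24.6, 55.1, 18.8, 28.8 and 26.0, and the control libraries 16.8, 34.7 and 27.5. The 55.1 of CSDS10 replicate 2 was the highest value, and the ranges of the groups overlapped. At 109540700, at -296 bp from the start, the CSDS30 libraries had 28.2, 29.7, 21.0, 28.2 and 25.4, the CSDS10 libraries 12.3, 33.9, 21.7, 18.6 and 18.7, and the control libraries 14.7, 16.5 and 18.3. CSDS30 lay above control without overlap, at a log2 fold change of 0.65 (limma, unadjusted p = 0.0541, adjusted p = 1.00).

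**Figure D3:**
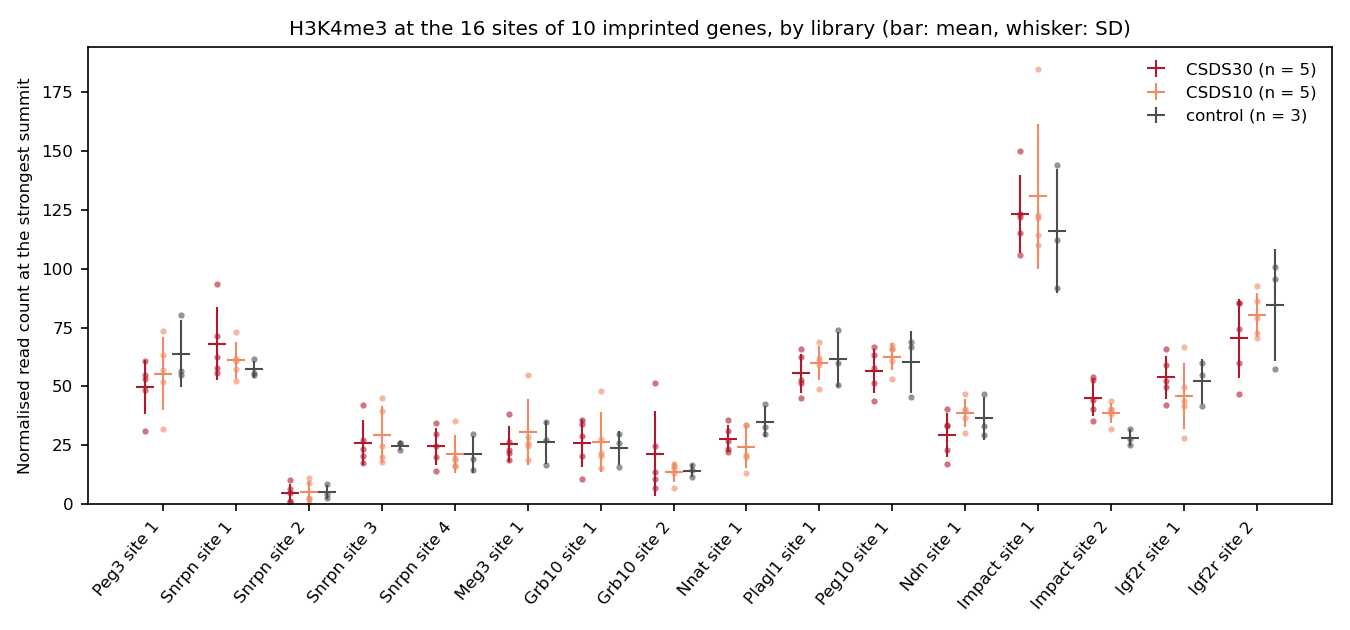
Normalised read counts at the strongest summit of each of the 16 sites; points are libraries, horizontal bars group means and whiskers SD (n = 5 CSDS30, 5 CSDS10, 3 control). The groups overlap at every site except Impact site 2, where the control libraries, 25.2 to 32.1, lie below all the others, and Snrpn site 2 is close to 0 throughout.

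**Figure D4:**
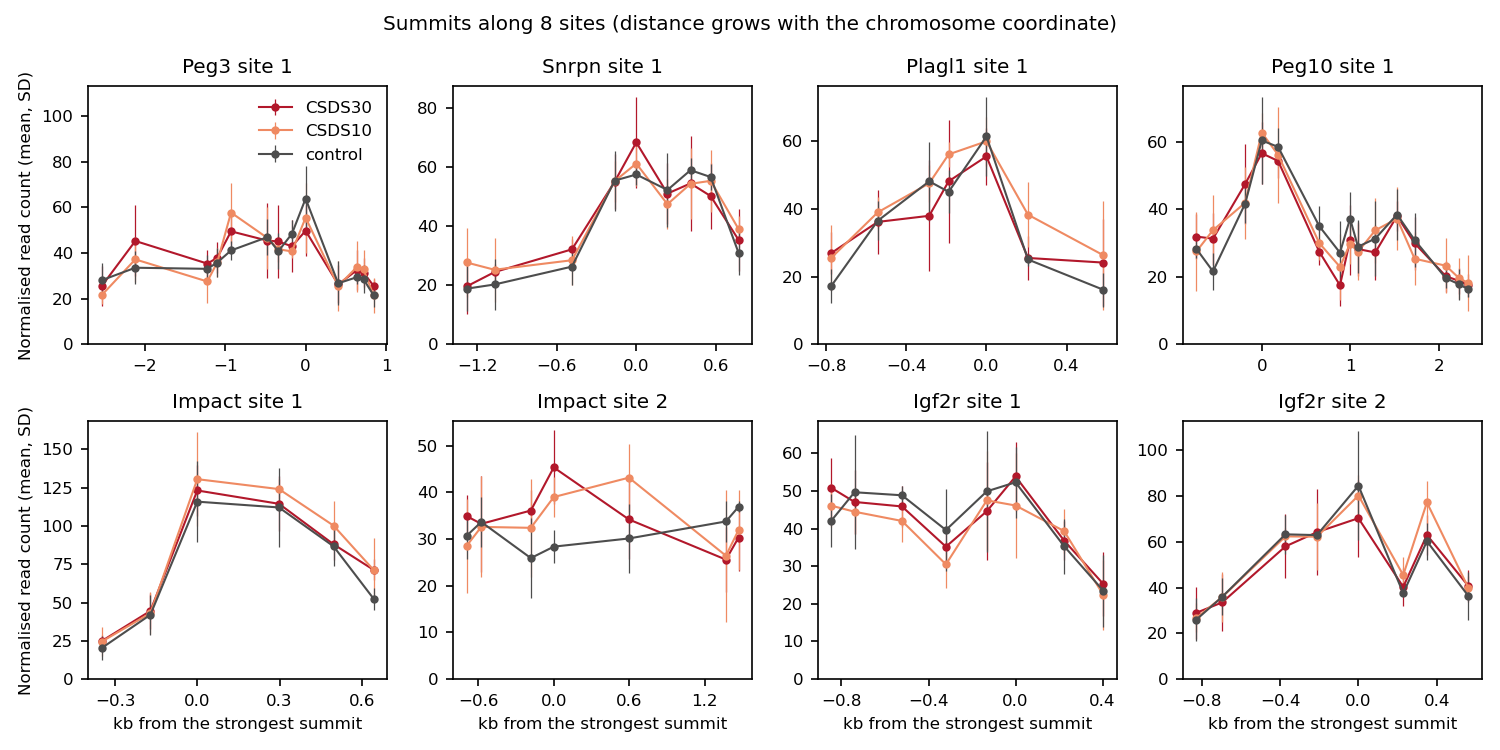
Mean ± SD of the normalised read count (n = 5 CSDS30, 5 CSDS10, 3 control) at every summit along 8 sites, against the distance in kb from the strongest summit. At Impact site 2 the means at the strongest summit are 45.3 in CSDS30, 39.0 in CSDS10 and 28.3 in control, while control is highest at the last 2 summits.

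Within a gene, the balance between alternative sites was compared as a log2 ratio per library, a measure added after the sites were seen. The weaker site stayed the weaker in 13 of 13 libraries for Igf2r site 1 over site 2 (-1.58 to -0.06), Impact site 2 over site 1 (-2.48 to -1.18) and Snrpn site 3 over site 1 (-2.36 to -0.21). Grb10 had no fixed order, since site 1 over site 2 was negative in 3 of 13 libraries (-2.14 to 1.90). For Impact the ratio averaged -1.43 ± 0.32 in CSDS30, -1.70 ± 0.45 in CSDS10 and -1.98 ± 0.49 in control (SD, n = 5, 5 and 3), and the difference between CSDS30 and control was 0.55 (two-sided exact permutation test, p = 0.143, with 0.848 after adjustment over the 12 comparisons). For Igf2r it averaged -0.36 ± 0.16 in CSDS30, -0.83 ± 0.53 in CSDS10 and -0.66 ± 0.60 in control. The Igf2r difference of 0.47 between CSDS30 and CSDS10 had the lowest p of all (two-sided exact permutation test, p = 0.0952, and 0.848 after adjustment). The smallest p that could be reached was 0.0357 against control and 0.00794 between CSDS30 and CSDS10, and none of the 12 passed.

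**Figure D5:**
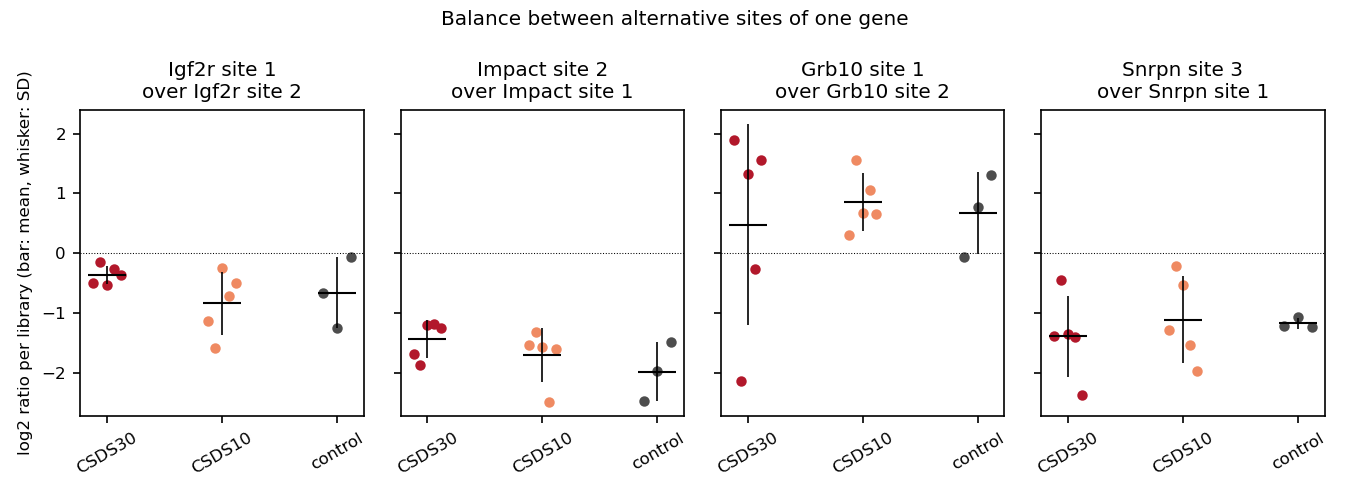
Log2 ratio of the strongest summits of a pair of sites in each library, for Igf2r, Impact, Grb10 and Snrpn; points are libraries, bars group means and whiskers SD (n = 5 CSDS30, 5 CSDS10, 3 control). The ratio is below 0 in all 13 libraries except for Grb10, where it runs from -2.14 to 1.90.

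Of 85 further imprinted genes and factors that act at imprinted regions, 84 were found in the gene table, 72 had a summit, and 66 had a strongest summit that was not one of the 103. These 66 genes lay on 64 summits with a median control level of 75.6 and quartiles of 45.3 and 112. In no comparison was one called (limma, 0 of 64), beside 0% of all tested summits. At an unadjusted p under 0.05, 0 were higher and 2 lower in CSDS30 against control, against 1.44% and 1.97% of all tested summits. In CSDS10 against control, 1 was higher and 1 lower, against 1.99% and 1.22%. In CSDS30 against CSDS10, 1 was higher and 3 lower, against 2.01% and 3.11%. These counts were not tested against the background. In CSDS30 against control, 21 were higher and 43 lower with a median log2 fold change of -0.10. In CSDS10 against control, 31 were higher and 33 lower with a median of 0.00. In CSDS30 against CSDS10, 20 were higher and 44 lower with a median of -0.08. Over all 48167 regions tested, 52.8%, 50.6% and 52.0% were higher in the same order, with medians of 0.02, 0.00 and 0.01. Those regions had a median level of 34.1 over all libraries, so they are mostly weaker than the 64 summits and an unlike background. The difference from all regions was not tested. The 6 genes with an unadjusted p under 0.05 in some comparison were Peg13, Chrac1, Igf2, Atp10a, Slc22a3 and Klf14. Peg13, a noncoding RNA expressed from the paternal allele in brain, averaged 49.1 ± 6.69 in CSDS30, 66.7 ± 10.3 in CSDS10 and 49.4 ± 2.87 in control, with log2 fold changes of 0.41 in CSDS10 against control and -0.43 in CSDS30 against CSDS10. Chrac1, a histone-fold protein of chromatin remodelling, averaged 87.4 ± 18.2 in CSDS30, 116 ± 28.8 in CSDS10 and 117 ± 16.6 in control, with -0.43 in CSDS30 against control and -0.40 in CSDS30 against CSDS10. Igf2, the growth factor bound by Igf2r, averaged 36.2 ± 7.40 in CSDS30, 24.9 ± 10.9 in CSDS10 and 36.5 ± 8.97 in control, with 0.64 in CSDS30 against CSDS10. Atp10a, which encodes a phospholipid transporter, averaged 103 ± 16.3 in CSDS30, 126 ± 8.38 in CSDS10 and 111 ± 17.5 in control, with -0.30 in CSDS30 against CSDS10. Slc22a3, an organic cation transporter gene of the Igf2r domain, averaged 37.3 ± 7.72 in CSDS30, 33.0 ± 12.2 in CSDS10 and 51.3 ± 19.6 in control, with -0.64 in CSDS10 against control. Klf14, a transcription factor gene, averaged 25.7 ± 3.94 in CSDS30, 31.2 ± 5.07 in CSDS10 and 38.4 ± 7.98 in control, with -0.55 in CSDS30 against control (SD, n = 5, 5 and 3 throughout; limma, adjusted p of at least 0.963 for each).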

How the data were processed

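Mouse prefrontal cortex was profiled by H3K4me3 ChIP-seq. Per the labels' protocols, chromatin was digested with micrococcal nuclease and sequenced as single reads. The submitters' processing notes name the builds mm10 and GRCm38.p5 and the tools Bowtie2, DESeq2, MACS2 and Trimmomatic. Their versions and settings were not given in the sources used here. Each row of the deposited table holds a normalised signal per library at a summit, which the authors made by dividing reads by a size factor; all values (100%) came out as whole reads within 0.001 reads. The peak score deposited by the authors was not used, and the input library was not analysed here.

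limma 3.58.1 was fitted to log2(value + 1), a pseudocount of 1 that understates changes of low summits, in all 13 ChIP libraries with a mean per group and a trended variance. Summits passing edgeR's filterByExpr on recovered reads were tested (152270 kept, 937 left out; all 103 of the 10 genes were kept). edgeR 4.0.16 and DESeq2 1.42.0 (R 4.3.3) were alternatives. Scripts were tested on simulated data. A region is shown by its strongest summit over all libraries, and up to 4 sites per gene are named; other imprinted genes are named where an unadjusted p was under 0.05, which keeps to at most the 3 lowest per direction. The members and lists were chosen with earlier results of these data known, and site ratios after the sites were seen. Replicates of a group differed by more than sampling noise (chi-square per summit 1.81 to 3.61 over 23 pairs). Reads carry no molecular identifiers.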

Additional observations from a re-analysis of the deposited data

Results flagged for a closer look

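In groups of 5 libraries, 1 value far from the other 4 was looked for at the 16 sites, and 3 of 32 groups held one; chance gives about 1 in 20. All were the highest of the CSDS10 group and came from one of the 3 shallowest libraries. At Impact site 1, CSDS10 replicate 4 had 185, while the next of its group had 123. At Snrpn site 4, CSDS10 replicate 4 had 35.6, while the next had 19.8. At Meg3 site 1, CSDS10 replicate 2 had 55.1, while the next had 28.8. The part of depth in these values was not tested.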

How the results depend on the processing

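Other scaling factors, pseudocounts of 0.5 and 5, filters, gene windows of 0 and 5 kb, fits of 2 groups, the mean over a region's summits, edgeR, DESeq2, leaving out each library, and leaving out the 3 shallowest libraries (chosen after the depths were seen) gave 81 further counts of called summits, and all were 0; 0 to 5 summits had an unadjusted p under 0.05. The filter on a mean of 10 left out Snrpn site 2. The median over the regions in CSDS10 against control, 0.08, was -0.0282 without control replicate 1, and leaving out 1 library gave -0.0282 to 0.13. In CSDS30 against control it lay between -0.02 and 0.07 and in CSDS30 against CSDS10 between -0.09 and 0.04. None of the 1287 further fold changes of single sites was called (lowest adjusted p 0.742). Their sign changed in 84 of them, and 21 of the 48 site results kept their sign throughout. At Impact site 2 the log2 fold change in CSDS30 against control lay between 0.57 and 0.74, with an unadjusted p of 0.00328 to 0.0433. None of 192 further site ratios passed, though a lone ratio could not pass after adjustment, and 10 changed sign. Same-numbered libraries did not deviate together more than others did (r of -0.29 to 0.37 over 11 pairs, -0.43 to 0.38 over 44 other pairs). This cannot decide whether the numbers are pairs, since the deviations are from means of 3 or 5 libraries. With the replicate block 0 summits were called. The medians were then 0.03 in CSDS30 against control, 0.06 in CSDS10 against control and -0.04 in CSDS30 against CSDS10. A strongest summit held 0 to 206 reads, there were 3 controls, and changes inside an interval given cannot be told apart here. An interval that excluded 0 did not suffice for a call, as at Impact site 2, since the adjustment ran over 152270 summits. The part of depth in the width of the intervals was not tested.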
